A study of Equus caballus with 10 samples.

Results

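The genes described here are 10 integrin subunits, namely the α subunits ITGA3, ITGA4, ITGA5, ITGA6, ITGA8 and ITGAV and the β subunits ITGB3, ITGB4, ITGB5 and ITGB8. They were chosen by name as subunits of receptors for laminin and fibronectin and of integrins that activate TGF-β, and all 10 were found among the 29196 genes of the expression table. The list was drawn up with results of this comparison known, so what follows on the treatment describes the subunits and is not an independent test of them. RNA was sequenced from primary tenocytes of the superficial digital flexor tendon of Thoroughbred or Thoroughbred-type horses, passaged and then kept in gels of bovine type I collagen for 14 days. Both groups received 100 nM PF-06650833 each day, which blocks the kinase IRAK-4, and 1 group also received 17 ng/ml IL-1β with the changes of medium. Each of 5 donors gave 1 library to the group with PF-06650833 alone and 1 to the group with IL-1β plus PF-06650833, which makes 10 libraries. Cells without inhibitor were not analysed here, so the comparison is of IL-1β against no IL-1β in the presence of the inhibitor.

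An integrin is a receptor of 1 α and 1 β chain that spans the cell membrane, binds the extracellular matrix outside and connects to the actin cytoskeleton inside. ITGA3 and ITGA6 bind laminins, mostly paired with ITGB1, and ITGA6 paired with ITGB4 forms the laminin receptor of hemidesmosomes, which anchors keratin filaments in epithelia. ITGA5 and ITGA8 pair with ITGB1 and bind the RGD sequence of ligands such as fibronectin and nephronectin, while ITGA4 binds an alternative site in fibronectin and the adhesion molecule VCAM1. ITGAV pairs with ITGB1, ITGB3, ITGB5, ITGB6 or ITGB8, and several of these receptors bind the propeptide of latent TGF-β. ITGAV with ITGB8 is known as an activator of latent TGF-β, the growth factor that drives matrix synthesis and tendon development. Tenocytes contract a collagen gel by pulling on it through receptors of this family.

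Expression is given as variance-stabilized log2 values, on which 1 unit is about a doubling for well expressed genes and a gene with 0 reads has the value 3.43. Differential expression required a limma adjusted p under 0.05 together with a log2 fold change of 1 or more in size, over the 17992 genes tested. Fold changes are of IL-1β plus PF-06650833 against PF-06650833 alone, and errors of fold changes are standard errors of the fit without a donor term. These errors include differences between donors, so they do not measure the spread of the differences within donors. With the donor as a block they were smaller for all 10 subunits, for example 0.22 against 0.52 for ITGA6 and 0.11 against 0.20 for ITGB5. Levels of different genes are not ranked, since values per transcript length were not used here. Libraries without IL-1β held an estimated 26700000 to 36100000 reads on genes, and libraries with it 27000000 to 33300000. Every subunit had at least 124 normalized counts in each library, so none of the 10 was at the limit of detection.

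The labelled cell type was checked against markers. Of 9 tenocyte markers, SCX, MKX, COL1A1, COL1A2, DCN, FMOD, COMP and THBS4 had reads in all libraries, and TNMD was at 0 reads in all 10, which allows up to 3 reads in a library. SCX, MKX and COMP fell with IL-1β plus PF-06650833, and the summed normalized counts of the list were 873186 to 1443064 without IL-1β and 236357 to 991370 with it. Of 5 epithelial markers, EPCAM and KRT5 were at 0 in every library, KRT14 reached at most 4.24 and KRT8 at most 5.29 normalized counts, and CDH1 fell (log2 fold change -2.22). Of 7 leukocyte markers, PTPRC reached at most 3.09 and ITGB2 at most 4.05 normalized counts, CD3E was at 0 and CD68 rose (log2 fold change 1.70). CD14 ranged from 0 to 1662 normalized counts without IL-1β and from 0 to 1682 with it (log2 fold change 2.66) and was not differentially expressed. The summed endothelial markers were at most 45.9 normalized counts in any library. In bulk RNA, fewer cells of a kind and less RNA per cell cannot be told apart.

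In the fit without a donor term, ITGB4, ITGB8 and ITGA4 rose with IL-1β plus PF-06650833 and no subunit fell past both thresholds. ITGB4 had 10.8 times and ITGB8 8.43 times the expression found with PF-06650833 alone, and ITGA4 had 2.16 times, as ratios on the variance-stabilized scale, which understates the change of low genes. ITGAV and ITGB5 were lower in 5 of 5 donors but by less than the minimum fold change, and ITGA8 had the lowest fold change and the widest spread between donors. The values of ITGA3, ITGA5, ITGA6 and ITGB3 went up in some donors and down in others. Differential expression was found for 6.68% of all 17992 genes (3.11% higher, 3.57% lower), and of the 10 subunits 3 were higher and 0 lower. With the donor as a block in the fit, 8.26% of all genes (4.01% higher, 4.25% lower) and 4 of the 10 subunits were differentially expressed, the added subunit being ITGA8, which fell. The groups did not overlap for 2 of the 10 subunits, ITGB4 and ITGB8, and both were higher, against 12.7% of all tested genes (6.29% higher, 6.41% lower). Over the 10 subunits the median log2 fold change was 0.14, and it was -0.0063 for all tested genes.

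**Figure D1:**
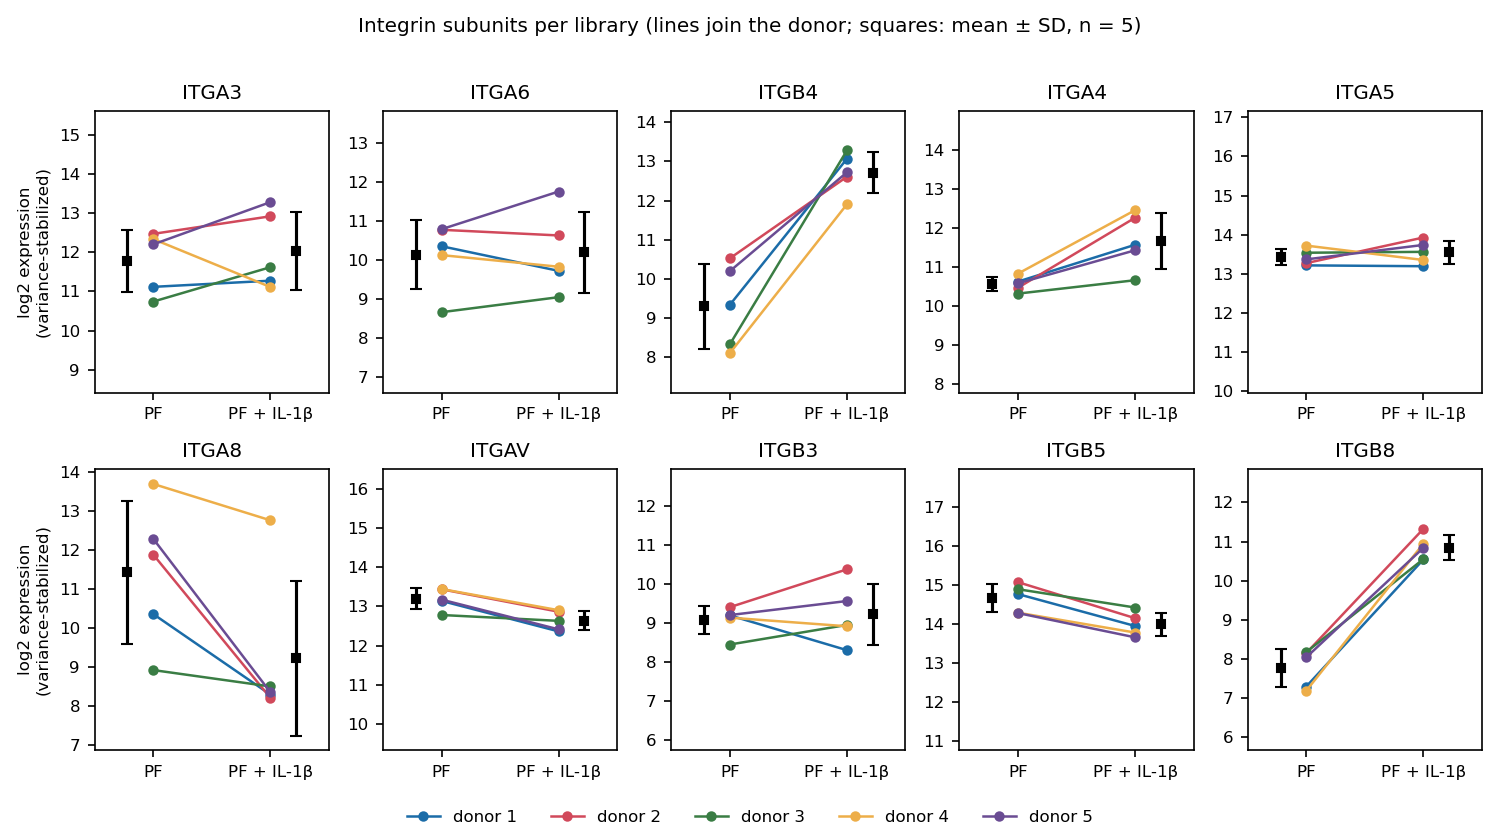
Log2 expression (variance-stabilized, vertical axis) of each integrin subunit with PF-06650833 alone (PF) and with the cytokine added (PF + IL-1β), 1 coloured line for each donor and black squares for the mean ± SD of 5 libraries; every panel spans the same number of log2 units. The lines of ITGB4 and ITGB8 all climb by more than 2 units, those of ITGAV and ITGB5 all descend by less than 1, and the ITGA8 value of donor 4 stays at 12.76 with IL-1β while the other 4 donors lie between 8.21 and 8.51.

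Among the subunits of the receptors that activate TGF-β, ITGB8 rose. With PF-06650833 alone its log2 expression in donors 1 to 5 was 7.29, 8.15, 8.17, 7.18 and 8.04. Given IL-1β as well it was 10.54, 11.33, 10.55, 10.95 and 10.84. The lowest library with IL-1β lay 2.37 units above the highest without it, and the normalized counts went from between 124 and 267 to between 1469 and 2546. This gave a log2 fold change of 3.08 ± 0.24 (SE, n = 5 per group), and the gain was smallest in donor 3 (2.38) and largest in donor 4 (3.76). Of all tested genes, 0.756% had a larger absolute fold change.

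ITGAV, the common α partner of ITGB8, ITGB5 and ITGB3, went the other way by a small amount. Its log2 expression in donors 1 to 5 was 13.14, 13.44, 12.78, 13.45 and 13.18 with PF-06650833 alone. It was 12.36, 12.87, 12.63, 12.91 and 12.41 with IL-1β plus PF-06650833. The groups overlapped, since donor 3 was already low without IL-1β and differed by -0.15, while the differences of the other donors lay between -0.78 and -0.54. For ITGAV the log2 fold change was -0.56 ± 0.16 (SE, n = 5 per group), which met the adjusted p threshold but not the minimum fold change.

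ITGB5, which forms a vitronectin receptor with ITGAV, had a similar difference. In donors 1 to 5 ITGB5 was at 14.76, 15.07, 14.89, 14.29 and 14.28 with PF-06650833 alone. It was 13.94, 14.14, 14.42, 13.78 and 13.65 with IL-1β plus PF-06650833. Donor 3 with IL-1β remained above donors 4 and 5 without it, so the groups overlapped, but every donor was below its own library without IL-1β, with differences from -0.92 to -0.47. The log2 fold change of ITGB5 was -0.67 ± 0.20 (SE, n = 5 per group), again past the adjusted p threshold and short of the minimum fold change.

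ITGB3, the other RGD-binding partner of ITGAV in the list, was at 9.19, 9.40, 8.45, 9.13 and 9.20 in donors 1 to 5 with PF-06650833 alone. Given IL-1β as well it was at 8.30, 10.37, 8.95, 8.91 and 9.56. It was higher in donors 2, 3 and 5 (by 0.97, 0.50 and 0.36) and lower in donors 1 and 4 (differences of -0.89 and -0.22). Its log2 fold change of 0.14 ± 0.34 (SE, n = 5 per group) turned negative without donor 3 with PF-06650833 alone (-0.01), without donor 2 with IL-1β (-0.14) and without both libraries of donor 2 (-0.06), so these data give it no direction.

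The balance of the β subunits that share ITGAV was compared within each donor, as the change of the log2 ratio of their genes, on which transcript length has no influence. The ratio of ITGB8 to ITGB5 rose by 3.74 ± 0.60 (SD, n = 5 donors), from 2.85 in donor 3 to 4.27 in donor 4. The ratio of ITGB8 to ITGAV rose by 3.64 ± 0.68 (SD, n = 5), with donor 3 again lowest at 2.53. In contrast, the ratio of ITGB5 to ITGAV changed by -0.11 ± 0.22 (SD, n = 5), with donors on both sides of 0. These ratios use the same libraries as the fold changes and were not tested.

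**Figure D2:**
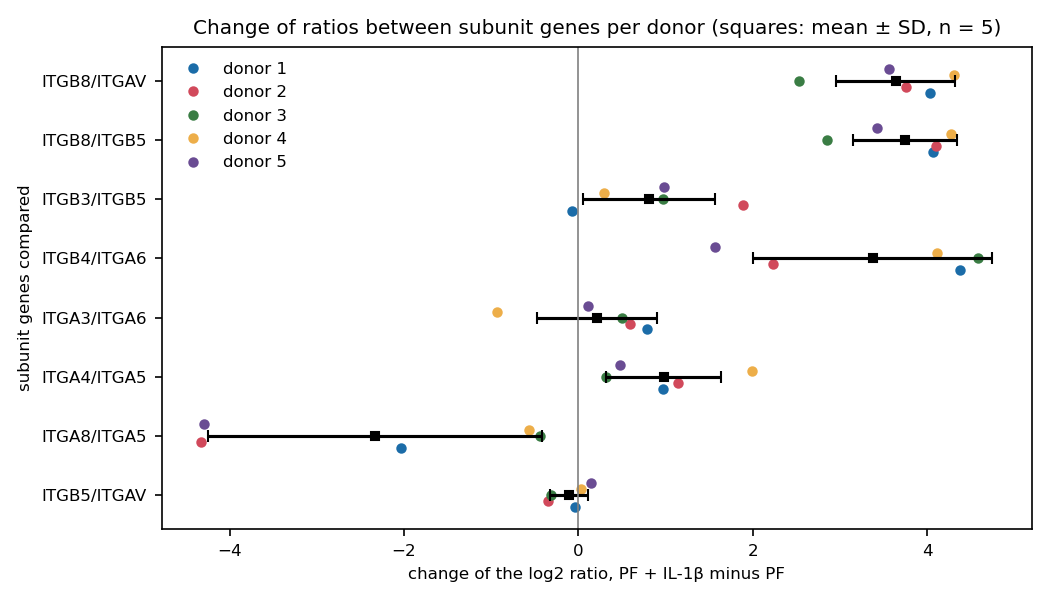
Change of the log2 ratio between the genes of 2 integrin subunits (horizontal axis, IL-1β plus PF-06650833 minus PF-06650833 alone) for each donor (coloured points), with black squares for the mean ± SD of 5 donors. The ratios of ITGB8 to ITGAV and to ITGB5 lie above 2.5 in every donor, the ratio of ITGB5 to ITGAV lies near 0, and that of ITGA8 to ITGA5 spreads from -4.32 to -0.44.

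Of the laminin-binding subunits, ITGB4 rose. In donors 1 to 5 ITGB4 was at 9.33, 10.52, 8.32, 8.09 and 10.19 with PF-06650833 alone. It was 13.07, 12.61, 13.28, 11.90 and 12.72 with IL-1β plus PF-06650833. The groups were 1.38 units apart at their nearest libraries, and the donors differed less with IL-1β (SD 0.53) than without it (SD 1.08). The gain was largest in donor 3 (4.96), which started among the lowest, and smallest in donor 2 (2.09), which started highest. ITGB4 had a log2 fold change of 3.43 ± 0.46 (SE, n = 5 per group), and 0.534% of all tested genes had a larger absolute one. Of the 5 epithelial markers, CDH1 alone exceeded 5.29 normalized counts in any library, and their summed counts were 534 to 1571 without IL-1β and 43.1 to 444 with it. Their part in the ITGB4 values was not tested.

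ITGA6, the α chain that pairs with ITGB4, had no common direction. Its log2 expression in donors 1 to 5 was 10.36, 10.78, 8.67, 10.13 and 10.79 with PF-06650833 alone. It was 9.73, 10.63, 9.05, 9.83 and 11.76 with IL-1β plus PF-06650833. It was higher in donors 3 and 5 and lower in donors 1, 2 and 4, and the log2 fold change of 0.06 ± 0.52 (SE, n = 5 per group) turned negative in 5 of the 15 leave-out fits (without 1 library, or without both of 1 donor), with -0.33 without donor 5 with IL-1β as the lowest value. The ratio of ITGB4 to ITGA6 rose by 3.37 ± 1.37 (SD, n = 5 donors), from 1.57 in donor 5 to 4.58 in donor 3. The plakin PLEC, collagen gene COL17A1 and tetraspanin CD151, which join ITGA6 and ITGB4 in hemidesmosomes, had log2 fold changes of -0.44, -0.34 and 0.71 and were not differentially expressed. COL17A1 lay between 3.43 and 4.37 in all libraries, near the value of 0 reads, so its fold change says little.

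ITGA3, the other laminin-binding α chain, also varied between donors. In donors 1 to 5 ITGA3 was at 11.12, 12.47, 10.74, 12.34 and 12.21 with PF-06650833 alone. It was 11.27, 12.92, 11.62, 11.11 and 13.29 with IL-1β plus PF-06650833. Donor 4 was lower with IL-1β (difference -1.23) and the other 4 donors were higher, by up to 1.08 in donor 5. Its log2 fold change of 0.27 ± 0.48 (SE, n = 5 per group) was 0.64 without both libraries of donor 4 and -0.04 without the library of donor 5 with IL-1β. A gene named LOC106782715, which overlaps ITGA3 in the RefSeq annotation of another horse assembly, fell (log2 fold change -1.02), and how reads were divided between the 2 was not tested.

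Of the subunits that bind fibronectin, ITGA4 rose. Its log2 expression in donors 1 to 5 was 10.63, 10.47, 10.32, 10.83 and 10.58 with PF-06650833 alone. It was 11.57, 12.26, 10.66, 12.46 and 11.43 with IL-1β plus PF-06650833. The 5 libraries without IL-1β lay between 10.32 and 10.83, and the SD went from 0.19 to 0.72 with IL-1β. Donor 3 gained 0.34 and its library with IL-1β stayed below that of donor 4 without it, so the groups overlapped. This gave a log2 fold change of 1.11 ± 0.29 (SE, n = 5 per group), near the minimum, and ITGA4 was no longer differentially expressed without donor 2 (1.09) or donor 5 (1.11) with PF-06650833 alone, without donor 2 (0.96) or donor 4 (0.91) with IL-1β, or without both libraries of donor 1 (1.15), 2 (0.94), 4 (0.98) or 5 (1.18). It was also lost at an adjusted p threshold of 0.01, all in fits without a donor term. With the donor as a block over all libraries ITGA4 was differentially expressed. The gene CERKL overlaps ITGA4 in the RefSeq annotation of another horse assembly, and its log2 expression went from 7.76 to 8.73 (log2 fold change 0.97). Whether the counting used strand is not given in the sources used here, so reads of these overlapping genes may not have been fully separated. ITGA4 is also carried by leukocytes, whose 7 markers summed to 52.8 to 1757 normalized counts without IL-1β and 171 to 1908 with it, nearly all of it CD14 and CD68, and their part in the ITGA4 values was not tested.

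ITGA5, the main fibronectin receptor chain of connective tissue cells, was at 13.21, 13.27, 13.54, 13.72 and 13.37 in donors 1 to 5 with PF-06650833 alone. Given IL-1β as well it was at 13.19, 13.93, 13.56, 13.35 and 13.74, which overlaps with the first group. ITGA5 had a log2 fold change of 0.13 ± 0.15 (SE, n = 5 per group), with donors 2, 3 and 5 higher and donors 1 and 4 lower. Per donor the differences ran from -0.37 to 0.66, the narrowest range of the 4 subunits without a common direction. Relative to ITGA5, ITGA4 was higher with IL-1β in 5 of 5 donors, with a change of the log2 ratio of 0.98 ± 0.66 (SD, n = 5).

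ITGA8, which binds nephronectin and fibronectin and is typical of contractile mesenchymal cells, was lower with IL-1β in 5 of 5 donors but very unevenly. In donors 1 to 5 ITGA8 was at 10.36, 11.88, 8.93, 13.69 and 12.28 with PF-06650833 alone. It was 8.30, 8.21, 8.51, 12.76 and 8.36 with IL-1β plus PF-06650833. Of the libraries given IL-1β, 4 held 275 to 342 normalized counts, while donor 4 held 6907. The differences were -3.67 and -3.93 in donors 2 and 5, -2.06 in donor 1, -0.93 in donor 4 and -0.42 in donor 3, which was already low without IL-1β.

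Over the 5 donors the log2 fold change of ITGA8 was -2.20 ± 1.02 (SE, n = 5 per group), and it was not differentially expressed without a donor term. It fell with the donor as a block (SE 0.51), and also without the library of donor 4 with IL-1β (log2 fold change -3.08) and without both libraries of donor 4 (-2.52). Of 5 mural cell markers, RGS5 and CSPG4 also fell. MCAM, NOTCH3 and MYH11 had log2 fold changes of 0.34, -0.61 and -0.56 and were not differentially expressed. The summed normalized counts of the 5 markers were 3810 to 36477 without IL-1β and 4635 to 13479 with it. Of these, MYH11 alone held 1102 to 32516 and 3720 to 12079. The part of cells with these markers in the ITGA8 values was not tested.

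**Figure D3:**
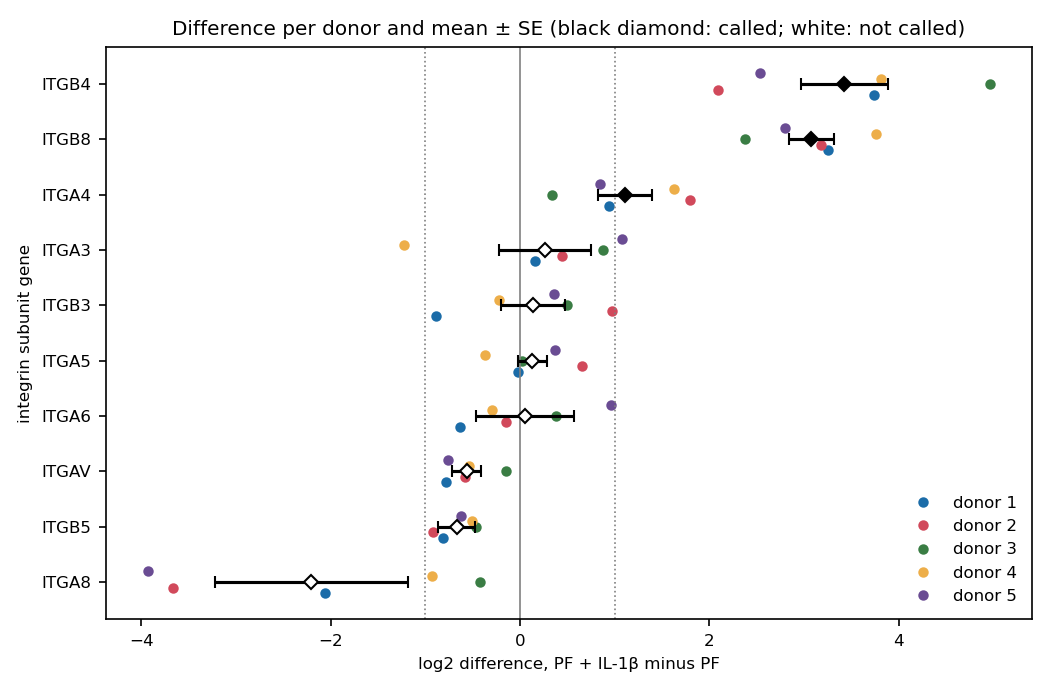
Difference in log2 expression between IL-1β plus PF-06650833 and PF-06650833 alone (horizontal axis) for each donor (coloured points) and as the mean ± SE of the limma fit without a donor term (diamonds, black where differentially expressed), with the subunits ordered by mean and dotted lines at the minimum fold change. The SE does not measure the spread of the coloured points. ITGB4 and ITGB8 lie beyond 2 in all donors, ITGA4 straddles 1, and ITGA8 spreads from -3.93 to -0.42.

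Differences between donors were tested apart from the treatment, with a limma F-test of the donor terms in the fit with donor and group, which does not use the comparison the subunits were chosen on. Of all tested genes, 2.76% differed between donors at an adjusted p below 0.05, and of the subunits 1 did. ITGA6 differed between donors (adjusted p = 0.0476 from limma), from a mean over both libraries of 8.86 in donor 3 to 11.27 in donor 5. This call was close to the threshold and was lost in 9 of 12 other fits, with adjusted p-values from 0.0397 to 0.24 over all of them, and 0.0530, 0.0839 and 0.24 without donors 1, 2 and 3. ITGA8 had the widest donor range, from 8.72 in donor 3 to 13.22 in donor 4 (adjusted p = 0.0913 from limma). For the other 8 subunits the adjusted p-values lay between 0.136 and 0.666. Between donors lay 89.3% of the sum of squares of ITGA6 within the groups, 91.3% for ITGB5, 82.9% for ITGA8 and 40.1% for ITGA5. The median over all tested genes was 66.1%. Where donors do not differ, as much of this sum falls between donors as within them on average. These percentages are therefore not shares of variation due to donors. Donor 3 had the lowest mean of ITGA3, ITGA4, ITGA6, ITGA8, ITGAV and ITGB3 and the highest of ITGB5.

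The other integrin subunits of the table moved mostly downward where they moved. This list and the related lists below were also drawn up with earlier results of these data known. Their counts and adjusted p-values are therefore not independent tests. Of 15 other subunits tested, 4 were differentially expressed (26.7%, against 6.68% of all genes), 1 higher and 3 lower, with a median log2 fold change of -0.10. With the donor block 5 were differentially expressed, against 8.26% of all genes. ITGA11, a collagen receptor chain of fibroblasts, fell from 14.42 ± 0.98 to 9.32 ± 2.42 (SD, n = 5; adjusted p = 0.00628 from limma). ITGA9, which binds tenascin-C, fell from 10.69 ± 0.35 to 9.23 ± 0.59 (SD, n = 5; adjusted p = 0.00479 from limma). ITGA7, a laminin receptor chain of muscle, fell (log2 fold change -3.32, adjusted p = 0.0217 from limma), and donor 4 with IL-1β stayed at 8.23 while the other 4 lay between 5.07 and 5.92. ITGB6, a further TGF-β-activating partner of ITGAV, rose (log2 fold change 1.74, adjusted p = 0.0193 from limma) on few reads. It had 0 to 2.12 normalized counts without IL-1β (0 in donors 1 and 5) and 2.78 to 71.5 with it. Donor 4 hardly differed, with 2.12 without IL-1β and 2.78 with it. The fold change of ITGB6 depends on the scale, with 3.70 as log2(normalized count + 1) and 4.23 with a pseudocount of 0.5. ITGB6 was not tested where genes had to have reads in all 10 libraries. ITGB1, the partner of ITGA3, ITGA4, ITGA5, ITGA6 and ITGA8, was at 16.17 ± 0.36 and 16.08 ± 0.26 (SD, n = 5), with a log2 fold change of -0.10 ± 0.22 (SE) that became 0.06 under quantile normalization.

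Among the ligands, chains of laminin and RGD proteins went in different directions. Of 12 laminin chains, 1 rose and 2 fell (25% differentially expressed, against 6.68% of all genes, median log2 fold change -0.15). LAMA3, a chain of the epithelial laminin that binds ITGA6 with ITGB4 and ITGA3, fell from 8.22 ± 0.55 to 5.73 ± 0.95 (SD, n = 5; adjusted p = 0.00399 from limma). LAMC1, the γ chain of most laminins, rose by 1.10 ± 0.24 (SE, adjusted p = 0.0122 from limma), and LAMA5 was lower in 4 of 5 donors and fell (log2 fold change -1.05, adjusted p = 0.0457 from limma). Of 13 tested ligands of the fibronectin and RGD receptors, 1 rose and 3 fell (30.8%, against 6.68% of all genes, median log2 fold change -0.72). With the donor block 7 of these 13 were differentially expressed, 2 higher and 5 lower, against 8.26% of all genes. FN1, the fibronectin gene, fell from 18.30 ± 0.51 to 16.88 ± 0.71 (SD, n = 5; adjusted p = 0.0369 from limma) in 5 of 5 donors. TNC and THBS1, of tenascin-C and thrombospondin 1, fell (log2 fold changes -2.04 and -2.85, adjusted p = 0.0135 and 0.0162 from limma). EDIL3, an RGD protein that binds ITGAV receptors, rose from 11.06 ± 0.70 to 13.11 ± 0.68 (SD, n = 5; adjusted p = 0.00482 from limma). VCAM1, the cellular ligand of ITGA4, had a log2 fold change of 2.57 and was differentially expressed with the donor block only (adjusted p = 0.106 without it, 8.31e-04 with it, both from limma).

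Of 19 genes of latent TGF-β, its binding proteins, receptors and targets, 2 fell and 0 rose (10.5%, against 6.68% of all genes, median log2 fold change -0.14). LTBP2 and LTBP4, matrix proteins of the latent TGF-β binding family, fell in 5 of 5 donors (log2 fold changes -2.26 and -1.85, adjusted p = 0.0131 and 0.0232 from limma). The ligand genes TGFB1, TGFB2 and TGFB3 were not differentially expressed, with log2 fold changes of -0.27, 0.41 and -0.96 and standard errors of 0.33, 0.42 and 0.43. TGFB3 was lower in 5 of 5 donors, TGFB1 in 4 and TGFB2 in 2. The differences of TGFB3 ran from -1.68 to -0.01, and donor 4 was nearly unchanged (13.70 and 13.68). With the donor block the adjusted p-values from limma were 0.0159 for TGFB3, 0.272 for TGFB1 and 0.309 for TGFB2, and TGFB3 stayed short of the minimum fold change. The target genes SMAD7, SKIL and CTGF had log2 fold changes of 0.28, 0.29 and -0.54 and were not differentially expressed. Of 27 adaptors and membrane partners of integrins, 2 fell and 0 rose (7.41%, near the 6.68% of all genes, median log2 fold change -0.30), namely TLN2, a talin (log2 fold change -1.35), and LIMS2, of the ILK complex (log2 fold change -1.27; adjusted p = 0.00590 and 0.00465 from limma). All 25 others, among them TLN1, FERMT2, ILK and PTK2, did not pass both thresholds.

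Each of the 15 related genes called without a donor term was also differentially expressed with the donor as a block, FN1 with an adjusted p of 0.00788 from limma. The leave-out fits had no donor term, and in them these calls differed in how much they rested on single libraries. Those of ITGA9, ITGA11, LAMA3, EDIL3, LIMS2 and TLN2 held in all 15 leave-out fits. FN1 was lost on leaving out donor 1, 2 or 5 in either group or as a whole, or donor 4 with PF-06650833 alone (log2 fold changes -1.64 to -1.20 over the 15 fits). LTBP4 and LAMA5 were lost without donor 2, 4 or 5 with PF-06650833 alone, donor 1, 2 or 5 with IL-1β, or donor 1, 2 or 5 as a whole, and LAMA5 also without donor 4 as a whole (-2.20 to -1.48 and -1.38 to -0.79). LAMC1 was lost without donor 1 or 3 with PF-06650833 alone, donor 2 with IL-1β, or donor 2, 3 or 5 as a whole (0.97 to 1.32). ITGA7 was lost without donor 4 or 5 with PF-06650833 alone, donor 1 or 2 with IL-1β, or donor 1, 2 or 5 as a whole (-4.05 to -2.89). ITGB6 and THBS1 were lost without donor 1, 2 or 5 as a whole (1.40 to 2.15 and -3.40 to -2.28), LTBP2 without donor 2 or 5 (-2.76 to -1.95) and TNC without donor 5 (-2.44 to -1.74).

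**Figure D4:**
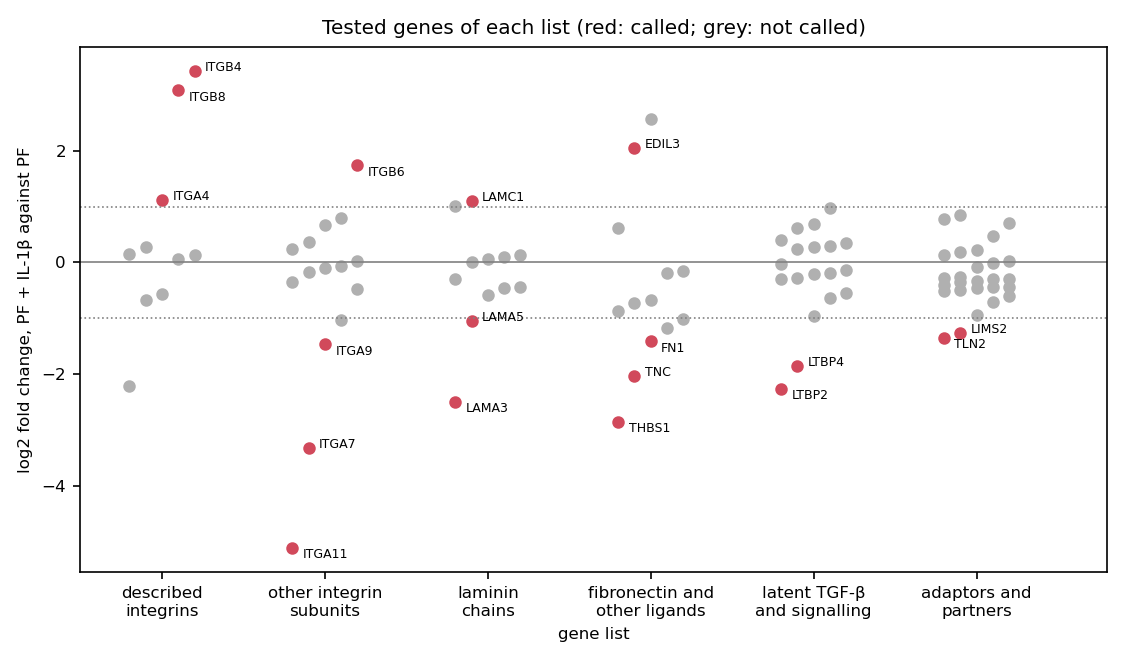
Log2 fold change of IL-1β plus PF-06650833 against PF-06650833 alone (vertical axis) for each tested gene of the integrins described and of 5 related lists (horizontal axis), red where differentially expressed and grey where not, with dotted lines at the minimum fold change. Of the 15 red genes outside the integrins described, 12 lie below 0, while ITGB4, ITGB8 and ITGA4 lie above 0.

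The genes whose profiles over the 10 libraries were most like those of the raised subunits were found by the root mean square difference between log2 profiles, each centred on its own mean, among 13855 genes with a symbol. For ITGB8 they were ZC3H12A (0.40), NFKBIZ (0.41) and SMTNL1 (0.46), with log2 fold changes of 3.04, 2.92 and 2.68. For ITGB4 they were RASSF10 (0.64), ADRA2A (0.67) and TSPAN13 (0.68), which is a looser match. The nearest to ITGA4 were its overlapping neighbour CERKL (0.19), TECTB (0.21) and PSME2 (0.26). For ITGA8, added after its values had been seen, the closest was GFRA1 (0.68) after an entry named CGNL1_1 (0.45). This measure follows the difference between the groups as well as the donors, and it carries no test.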

How the data were processed

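RNA was sequenced from 10 libraries of equine tenocytes, 5 donors in 2 groups. Per the labels and the study's methods, Salmon (version 1.8) with GC-bias correction assigned the reads to transcripts of EquCab3.0, and tximport summed them to genes. The authors deposited log2 values for 29196 genes, which the values show to be variance-stabilized and normalized between libraries, with 3.433 as the value of 0 reads. The 10 columns were matched to samples by their library names, and the donor by the line in the sample title.

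The fit covered the 17992 genes above 3.433 in at least 5 libraries and used limma 3.58.1 in R 4.3.3, with the trend option and p-values adjusted over all tested genes after Benjamini and Hochberg. The study names no donor term, so the reported fit has none, and the replicate block is the same fit with the donor. The donors pair the libraries by origin, and each donor's pair shared its deviations from the means of the groups (correlations across genes 0.367 to 0.506 over 5 pairs). The reported fit and the leave-out fits of the treatment do not use this pairing, and only the replicate block does. Donor differences were tested with an F-test of the donor terms. Normalized counts were computed by inverting the transformation, and depth was estimated from the spacing of the lowest values, of which 69.1% to 85.9% per library lay within 0.15 of a whole read. The fits were tested on simulated data.

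The subunits and lists were chosen with earlier results of these data known. Named from each related list were up to 4 differentially expressed genes by adjusted p, plus ITGB1, FN1 and the 3 TGFB genes; other genes named, the ratios between subunits and the profile match of ITGA8 were chosen after their values were seen. CYR61 and CTGF stand for CCN1 and CCN2. A RefSeq table of another horse assembly gave names (90 of 92 list genes matched) and overlaps, and no positions or sequences are given. Alternatives were the replicate block, back-transformed log2(normalized count + 1) and + 0.5 values, 2 other filters, quantile normalization, median centring, 2 other thresholds, and leaving out each library or donor.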

Additional observations from a re-analysis of the deposited data

Results flagged for a closer look

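Among 58 sets of 5 libraries, 3 held a library that stood apart from the remaining 4, and about 2.9 would by chance. For ITGA8 it was donor 4 given IL-1β plus PF-06650833, at 12.76 against 8.21 to 8.51 in the other donors. ITGA7 in the same library was at 8.23, against 5.07 to 5.92. For ITGB3 it was donor 3 with PF-06650833 alone, at 8.45 against 9.13 to 9.40.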

How the results depend on the processing

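The calls and directions of ITGB4, ITGB8 and ITGA5 were the same under all alternatives run. With the replicate block 4 of the 10 subunits were differentially expressed (ITGA8 added), 19 of the related genes and 1486 genes in all, and the block changed no other call of a subunit. Without a minimum fold change there were 2782 genes (1362 higher, 1420 lower) and 5 subunits, with ITGAV and ITGB5 added. At an adjusted p below 0.01 there were 719 genes (345 higher, 374 lower), 2 subunits against 3 (ITGA4 lost), 6 related genes against 15, and 45 genes differing between donors against 496. The number of subunits differing between donors was 0 at that threshold, with a pseudocount of 0.5, with both other filters, under quantile normalization and under median centring. Leaving out a library or donor gave 762 to 1422 genes (762, 790 and 777 without donors 1, 2 and 5), 2 to 3 subunits and 6 to 18 related genes (9, 7 and 6 without donors 1, 2 and 5), and leaving out a donor gave 131 to 634 genes differing between donors (237, 316 and 131 without donors 1, 2 and 3) and 0 to 2 such subunits (0 without donor 1, 2 or 3, 2 without donor 4). The log2 fold change of ITGB1 turned to 0.056 under quantile normalization. On leaving out a library or donor, log2 fold changes turned for ITGB3 in 3 fits (-0.14 to 0.40 over 15), for ITGA3 in 1 (-0.042 to 0.64) and for ITGA6 in 5 (-0.33 to 0.34). The cause of these changes was not tested, and the leave-out fits also had fewer libraries. Quantile normalization and median centring moved the median fold change of all genes from -0.0063 to -0.011 and 0.024. All 10 subunits had over 124 normalized counts in each library, so depth limits ITGB6 rather than them.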
